A study of Homo sapiens with 3 samples.

Results

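Irradiated T24 cells carrying an shRNA against HDAC6 (RT + shHDAC6) were compared with untreated T24 control cells (Ctrl) over all genes of the deposited table. Of its 58381 genes, 20374 had at least 10 counts in either library and were compared. T24 is an established human bladder carcinoma line. The Ctrl library came from control cells without irradiation, the RT + shHDAC6 library from cells given 10 Gy and the knockdown, and a library of irradiated control cells (RT, 10 Gy) is given beside them. By the study's methods, cells were infected with lentivirus carrying either the shRNA or an empty pLKO.1 vector and were selected in puromycin, although its results call the comparator parental cells. The question was which pathways remained away from the untreated level after both treatments and which were back near it. There was 1 library per condition, so no p-value is given. No library of unirradiated knockdown cells was used here, so the share of a net change that belongs to the knockdown and the share that belongs to irradiation cannot be told apart beyond setting RT beside RT + shHDAC6. Both comparisons share the Ctrl library, and their values are therefore set side by side and not correlated.

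Ionising radiation breaks DNA. Kinases that sense the breaks halt the cell cycle, in part through p53, and the surviving cells commonly release chemokines and matrix proteases under NF-kB, AP-1 and YAP control. HDAC6 is a mainly cytoplasmic deacetylase that acts on alpha-tubulin and HSP90 and carries ubiquitinated protein aggregates along microtubules. An shRNA lowers its target by RNA interference, which acts on the mRNA.

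HDAC6 itself (ENSG00000094631) had 3098 counts in Ctrl, 2383 in RT and 2170 after both treatments. After scaling for library size and composition by the trimmed mean of M-values (TMM), its level in RT + shHDAC6 was 90.7% of Ctrl, that is -0.14 on the log2 scale (interval -0.22 to -0.06). RT stood at 104% of Ctrl. The mRNA of the targeted gene was therefore only slightly lower in this library, which is described here as labelled. By qPCR and Western blotting, the study reports lower HDAC6 mRNA and protein in its shHDAC6 T24 cells. The reason for this difference was not tested. Intervals are 95% Clopper-Pearson intervals of the 2 counts. They hold the error of counting and leave out the variation between cultures.

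The libraries held between 35424086 and 41811165 counts, and mitochondrially encoded RNA took between 3.75% and 6.09% of them. Compared with scaling by total counts, TMM raised every log2 ratio to Ctrl by 0.13 in RT + shHDAC6 and by 0.22 in RT. Of 12 urothelial markers, 2 had fewer than 10 counts in all 3 libraries and 5 fell at least 2-fold in RT + shHDAC6. Over all genes compared, 7.92% fell. The 5 markers were the keratin KRT7, the luminal transcription factors GATA3 and PPARG, TP63, and UPK1A at few counts. Other markers did not fall as far: log2 ratios were 0.68 for KRT18 and 0.12 for EPCAM. KRT8 was at 91.0% of Ctrl, KRT19 at 82.1% and CDH1 at 80.5%. The 12 markers summed to 397 CPM (counts scaled to a common library size) in Ctrl, 480 in RT and 372 after both treatments. KRT18 made up 163, 251 and 260 of these sums. The 4 mesenchymal markers summed to 3112, 2700 and 3106, mostly from VIM (2701, 2225 and 2754). CDH2 was highest in RT (151, 258 and 126). FN1 (184, 159 and 167) and ZEB1 (77, 59 and 60) were lower in both irradiated libraries. Of 9 markers of other cell types, 3 had fewer than 10 counts throughout, the erythroid HBA1 was at 0 in every library, and the sum was 209, 142 and 173. Most of that sum came from the collagen genes COL1A1 and COL1A2. In such bulk RNA, fewer cells of a type and less RNA per cell cannot be told apart.

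A gene was called when its scaled level differed at least 2-fold and its interval excluded no change. By this rule 865 genes rose (4.25% of those compared) and 1613 fell (7.92%) in RT + shHDAC6 against Ctrl, 12.2% in all. These shares are the background for the counts of rises and falls in the gene lists below. The share of rises among the calls was 34.9%, and with total counts only it was 23.1% (618 rises and 2055 falls). In RT against Ctrl, 842 genes rose (4.15%) and 1246 fell (6.15%) of 20267 compared, 10.3% in all. Most of the transcriptome lay close to the untreated level after both treatments: 13362 genes (65.6%) were within 1.5-fold of Ctrl. The median log2 ratio was -0.06, with 9414 of the 20374 genes above 0 and 10960 below. A change of at least 4-fold was reached by 702 genes before the interval was applied.

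Low-level genes lay further below Ctrl than abundant ones in both irradiated libraries. Genes with a mean of 5 to 30 counts had a median log2 ratio of -0.36 in RT + shHDAC6 and of -0.44 in RT. Those with 1000 to 10000 counts had medians of 0.09 and 0.10. For several lists the median of those with at least 1000 counts in Ctrl or RT + shHDAC6 is given too, an alternative added after seeing the data. The part of expression level in these results was not tested.

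**Figure D1:**
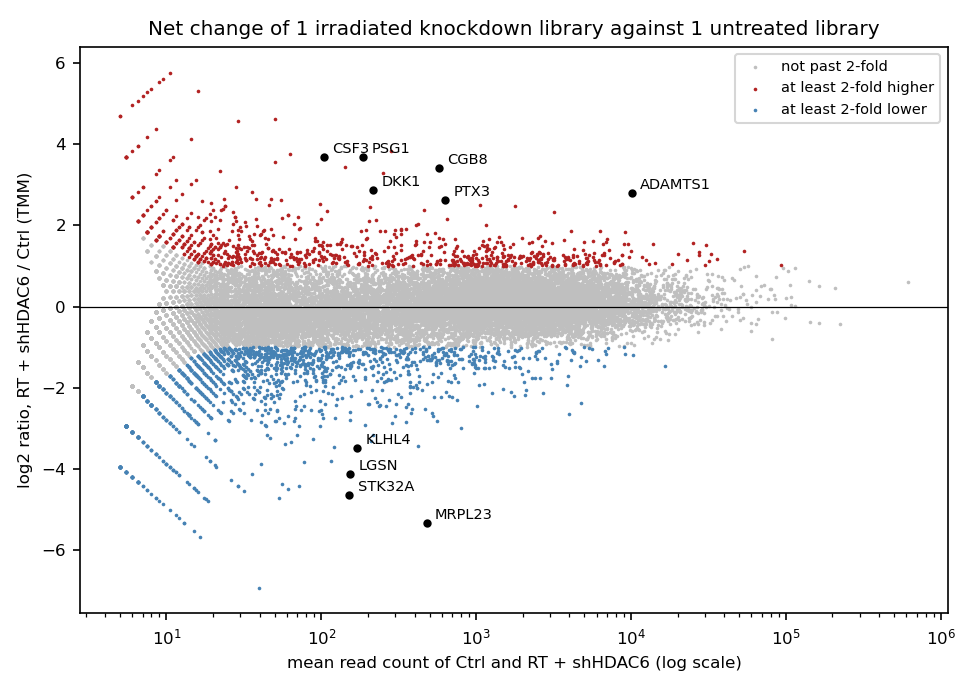
Each point is 1 of the 20236 compared genes that had a symbol, with its mean read count in Ctrl and RT + shHDAC6 on a log axis and its TMM-scaled log2 ratio on the other axis. Called rises are red and called falls blue. CSF3, PSG1 and CGB8 lie above 3, ADAMTS1 combines a rise with a mean near the upper end of the axis, and MRPL23 lies below -5.

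The largest rises, among genes with 100 or more counts where they were higher, included several secreted proteins. SERPINB2, an inhibitor of plasminogen activators, had 11 counts in Ctrl, 17 in RT and 115 after both treatments, or 3.76 on the log2 scale (interval 2.87 to 4.80). Part of its exonic sequence overlaps a neighbour on the same strand, so its counts could be split. CSF3, the granulocyte colony-stimulating factor, stood at 19 counts in Ctrl and in RT and at 189 in RT + shHDAC6 (3.69, interval 3.0 to 4.45). PTX3, a soluble pattern recognition protein, went from 219 and 274 counts to 1043 (2.62, interval 2.41 to 2.84). In RT these 3 genes had log2 ratios of 1.06, 0.44 and 0.76, so the RT + shHDAC6 library stood apart from the other two. CCDC78, a centriole protein gene, had the same order with 36, 33 and 160 counts (2.53, interval 2.00 to 3.09).

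A further group was raised in both irradiated libraries. ADAMTS1, a metalloprotease that cleaves matrix proteoglycans, had 3181 counts in Ctrl, 7718 in RT and 17096 after both treatments, with a log2 ratio of 2.80 (interval 2.74 to 2.85) after both treatments against 1.71 in RT. BMPER, which binds bone morphogenetic proteins, had 30, 104 and 253 counts (3.45, interval 2.90 to 4.05). Levels of these genes were higher again in RT + shHDAC6 than in RT. DKK1, a secreted WNT inhibitor, was alike in both, with 65 counts in Ctrl, 396 in RT and 366 after both treatments (2.87, interval 2.48 to 3.27). MT-TQ, a mitochondrial tRNA, also rose, from 59 counts to 390 and 444 (3.28, interval 2.89 to 3.70).

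The falls were led by MRPL23, a protein of the large mitochondrial ribosomal subunit. It had 938 counts in Ctrl, 34 in RT and 18 after both treatments, or -5.33 on the log2 scale (interval -6.09 to -4.66), and was already at -4.35 in RT. In the other falls named here the RT library lay between Ctrl and RT + shHDAC6. The kinase gene STK32A had 294, 108 and 9 counts (-4.66, interval -5.80 to -3.71). LGSN, a lens protein related to glutamine synthetase, had 295, 76 and 13 counts (-4.13, interval -5.06 to -3.33). KLHL4, a kelch protein on chromosome X, had 320, 62 and 22 counts (-3.49, interval -4.18 to -2.87). These genes kept only a few counts after both treatments, and their intervals are correspondingly wide. PLCXD3, MDGA2, the pseudogene MTHFD2P1 and the non-coding RNAs LINC01876 and LNCTSI had log2 ratios between -4.73 and -3.45.

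To describe pathways, 44 gene lists were summarised by the median log2 ratio of their members, and a list was taken as away from Ctrl when this median was at least 0.25 from 0. Of these, 12 were away in the same direction in RT and in RT + shHDAC6, and 3 were away in RT + shHDAC6 only. A further 12 were away in RT and near Ctrl in RT + shHDAC6, and 17 were near Ctrl in both. For comparison, the median over all genes compared was -0.06. Lists close to the limit changed side under other settings, and those of heat shock, keratin, excision repair, mesenchymal and extracellular matrix genes were closest to it.

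**Figure D2:**
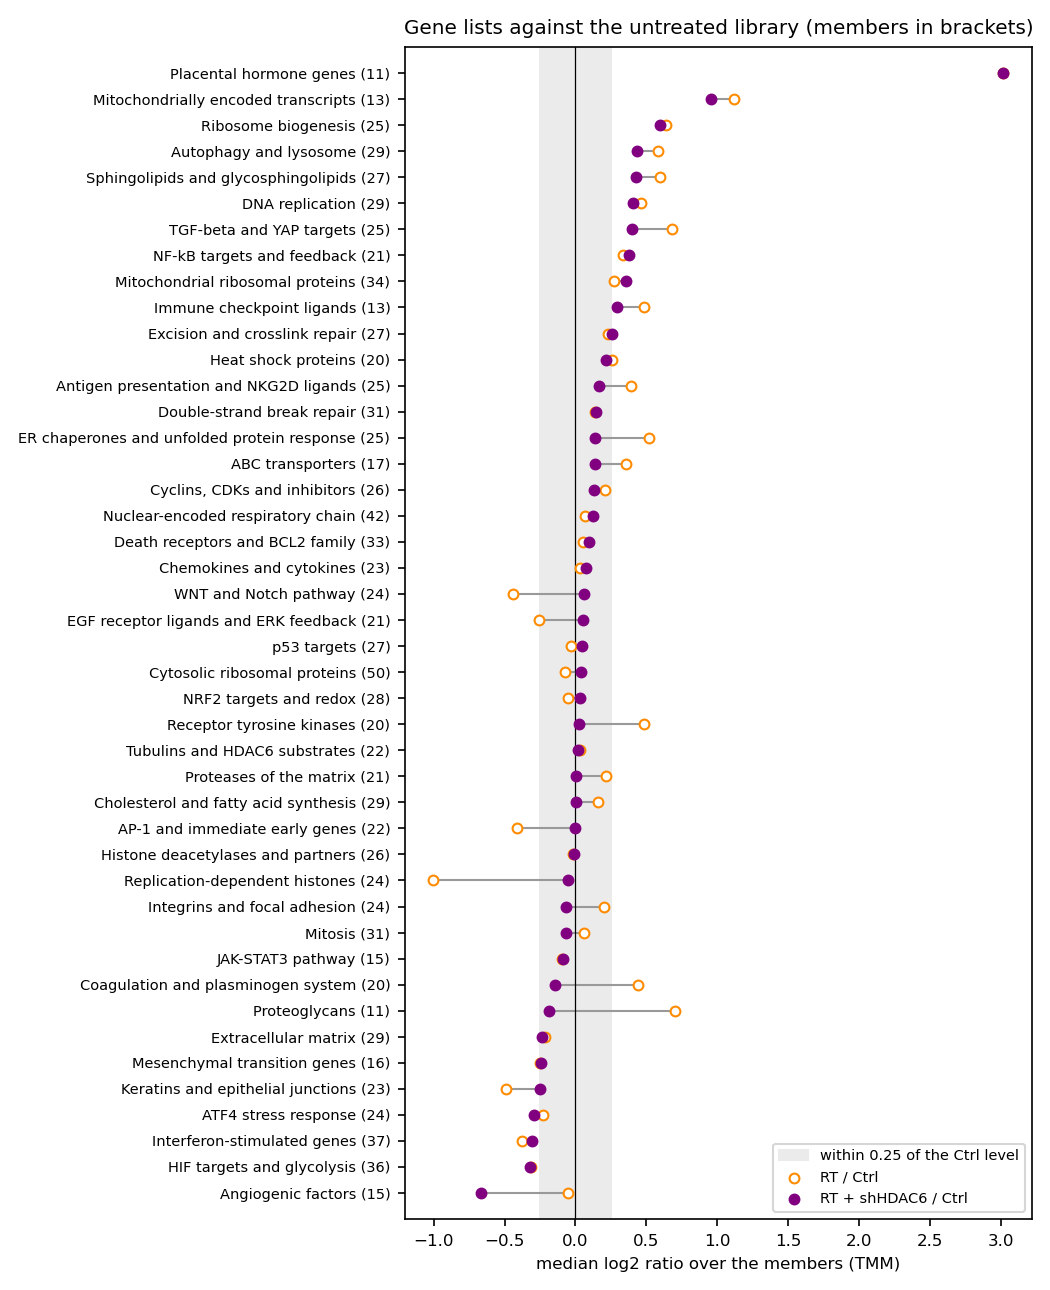
Median log2 ratio against Ctrl of 44 gene lists, ordered by the value in RT + shHDAC6 (filled purple points) and joined to the value in RT (open orange points). The grey band marks medians within 0.25 of the Ctrl level. Histone, proteoglycan and ER chaperone lists lie outside the band in RT and inside it in RT + shHDAC6, while angiogenic factors do the reverse.

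The placental hormone genes stayed furthest above Ctrl. Chorionic gonadotropin beta (CGB) and pregnancy-specific glycoproteins (PSG) are products of the trophoblast that some carcinomas also express. Summed over 6 CGB genes, the counts came to 169 in Ctrl, 1360 in RT and 1143 after both treatments, the last 8.76-fold above Ctrl (log2 3.13, interval 2.90 to 3.37). The 8 PSG genes summed to 254, 1326 and 1085 counts, a 5.53-fold difference (log2 2.47, interval 2.27 to 2.67). Both irradiated libraries thus lay far above Ctrl, and RT lay somewhat higher than RT + shHDAC6, with log2 ratios of 3.44 and 2.82. Members of each family are nearly identical, so single genes such as CGB8 (125, 1193 and 1022 counts) and PSG1 (34, 179 and 340 counts) are uncertain and the sums are firmer. Of 15 listed genes 11 passed the count filter, several of them only through an irradiated library. CGA, the alpha subunit that pairs with CGB, did not share the pattern, with 71, 50 and 43 counts.

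The 13 mRNAs of the mitochondrial genome, which encode subunits of the respiratory chain and ATP synthase, also stayed above Ctrl. All 13 had a positive log2 ratio in both irradiated libraries, with a median of 0.95 in RT + shHDAC6 and 1.12 in RT. After both treatments 4 of them rose at least 2-fold (30.8%, against 4.25% of all genes). MT-ND3, a subunit of complex I, had 4112 counts in Ctrl, 7989 in RT and 9629 after both treatments (1.6, interval 1.55 to 1.65). MT-ND6, encoded on the other strand from the rest, had 18976, 36003 and 41819 counts (1.51, interval 1.49 to 1.54). The 42 nuclear genes of the same complexes were near Ctrl in both, with medians of 0.12 and 0.07 and no call. The 34 mitochondrial ribosomal proteins had a median of 0.36, against 0.27 in RT, and their only call was the fall of MRPL23.

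Growth-related lists were higher in both irradiated libraries, with small differences per gene. Ribosome biogenesis, the set of nucleolar factors that make and assemble ribosomal RNA, had a median of 0.60 over 25 genes (0.64 in RT). Of the 25, 22 were above 0, beside 9414 of all 20374 genes compared. The only call in this list was POLR1C, a subunit shared by RNA polymerases I and III. It had 767 counts in Ctrl, 1107 in RT and 1191 after both treatments (1.01, interval 0.88 to 1.14). The 50 cytosolic ribosomal proteins had a median of 0.04.

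DNA replication genes had a median of 0.40 over 29 genes (0.46 in RT), and 27 of the 29 were above 0 without any reaching 2-fold. Over all genes compared, 9414 of 20374 were above 0. ORC6, a subunit of the origin recognition complex, had 2594, 3507 and 3867 counts and a log2 ratio of 0.95 (interval 0.88 to 1.02). RRM2, which makes deoxynucleotides as part of ribonucleotide reductase, had 4172, 5804 and 6135 counts (0.93, interval 0.87 to 0.99). The highest median among the roles was that of the helicase and licensing factors, at 0.50 in both libraries. Fanconi anaemia genes, which repair DNA crosslinks, had medians of 0.43 and 0.45, and the median of the whole excision and crosslink repair list was 0.26, close to the limit.

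Mitotic genes were near Ctrl as a list, with a median of -0.07 over 31 genes, and the cyclins and securin within it were lower, at -0.55 (-0.56 in RT). CDK1, the kinase that drives entry into mitosis, had 4133 counts in Ctrl, 4902 in RT and 5659 after both treatments (0.83, interval 0.77 to 0.88). KIF20A, a kinesin of cytokinesis, had 8264, 4597 and 3583 counts (-0.83, interval -0.89 to -0.78). Replication genes were thus above Ctrl, whereas mitotic genes spread to either side of it. CDC25A, a phosphatase of the G1/S transition, rose from 1774 counts to 2286 and 2756 (1.01, interval 0.92 to 1.10). CDKN2B, an inhibitor of cyclin D kinases, fell from 2037 counts to 533 in RT and 625 in RT + shHDAC6 (-1.33, interval -1.46 to -1.20).

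The p53 target list, which reads out the classical response to irradiation, was near Ctrl in both, with a median of 0.05 over 27 genes (-0.03 in RT). Only AEN, an apoptosis-related nuclease, rose, with 1187, 1782 and 2137 counts (1.22, interval 1.12 to 1.32). Only GDF15, a stress cytokine, fell, with 679, 178 and 234 counts (-1.16, interval -1.38 to -0.95). CDKN1A, the CDK inhibitor p21, had 2793 counts in Ctrl, 1441 in RT and 2093 after both treatments, which placed its level at 97.1% of Ctrl, against 69.8% in RT. MDM2, which degrades p53, lay at -0.14 (interval -0.21 to -0.07). Within the list, the 8 apoptosis genes had a median of 0.52 and the 7 arrest genes one of -0.31.

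Double-strand break repair was near Ctrl at 0.15 over 31 genes. XRCC4, which binds DNA ligase IV in end joining, fell from 1476 counts to 650 in RT and 458 in RT + shHDAC6 (-1.32, interval -1.47 to -1.16). XRCC3, of homologous recombination, rose from 1216 to 1829 and 1923 counts (1.03, interval 0.93 to 1.14). A gene on the other strand overlaps 76.7% of the exon length of XRCC3. The library kits named by the labels and by the study, which differ, both keep strand, but the strand setting of the counting is not given in the sources used here. This rise could therefore belong to either gene if reads were counted without strand.

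Lysosomal and sphingolipid genes stayed above Ctrl. The 17 lysosome genes had a median of 0.55 in RT + shHDAC6 and 0.91 in RT, whereas the 12 autophagy genes of the same list had -0.21 in both. GABARAPL1, an autophagosome membrane protein, fell from 1801 counts to 687 in RT and 490 in RT + shHDAC6 (-1.50, interval -1.65 to -1.36). LAMP1, a lysosomal membrane protein, had 9426, 13195 and 13484 counts (0.89, interval 0.85 to 0.93). Sphingolipid genes had a median of 0.43 over 27 members (0.60 in RT). DEGS1, the desaturase that completes ceramide, rose from 4067 counts to 7293 and 7268 (1.21, interval 1.16 to 1.27), and ST3GAL5, which makes the ganglioside GM3, fell from 441 to 191 and 117 (-1.54, interval -1.85 to -1.24).

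Inflammatory genes were raised after both treatments in part of their members. Of 31 chemokines and cytokines 23 were compared, and the median was 0.07, near Ctrl. Among the 23, 8 rose (34.8%, against 4.25% of all genes) and 1 fell (4.35%, against 7.92%). A member below the count filter in Ctrl was compared only where RT + shHDAC6 had more counts, which favours rises in this share. The same filter applied to all genes, and its part in the difference between the shares was not tested. The 9 of the 23 with at least 100 counts in Ctrl or RT + shHDAC6 had a median of 1.52. For the 2 with at least 1000 counts it was 1.13. CSF3 and CXCL8 reached 100 counts only in RT + shHDAC6, so this choice of members favours rises. CXCL1, a neutrophil chemokine, had 183 counts in Ctrl, 884 in RT and 741 after both treatments (2.39, interval 2.16 to 2.63). CXCL8, or interleukin 8, had 45, 73 and 154 counts (2.15, interval 1.66 to 2.66). CSF1, the macrophage growth factor, had 3329, 10791 and 9374 counts (1.87, interval 1.81 to 1.92). CXCL1 and CSF1 were thus high in both irradiated libraries, and CXCL8 and CSF3 were highest in RT + shHDAC6.

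NF-kB targets had a median of 0.38 over 21 genes (0.34 in RT). Beside PTX3, the adaptor TRAF1 rose from 206 counts to 307 and 399 (1.33, interval 1.08 to 1.58), and NFKBIZ, a nuclear co-regulator of NF-kB, from 333 to 361 and 544 (1.08, interval 0.88 to 1.28). BCL3, another co-regulator, fell from 708 to 220 and 151 (-1.86, interval -2.12 to -1.60). Among 13 immune checkpoint ligands the median was 0.29 (0.48 in RT), with 7 above 0 and 6 below, 3 rises and 2 falls. The rises were 23.1% of the 13 and the falls 15.4%, against 4.25% and 7.92% of all genes. The 3 members with at least 1000 counts had a median of 0.52. CD274, which encodes PD-L1, rose from 595 counts to 1072 in RT and 996 in RT + shHDAC6 (1.12, interval 0.97 to 1.27). TNFSF9, the 4-1BB ligand, rose from 67 to 116 and 139 (1.43, interval 1.0 to 1.87). The other rise was PDCD1LG2, which encodes PD-L2, from 26 to 45 and 96 counts (2.26, interval 1.62 to 2.94). The falls were of TNFSF4, the OX40 ligand, with 16, 5 and 3 counts, and of CD70, the CD27 ligand, with 43, 40 and 16, both at low counts with wide intervals (-4.46 to -0.24 and -1.98 to -0.20).

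Interferon-stimulated genes stayed below Ctrl, with a median of -0.31 over 37 genes (-0.38 in RT). Of the 37, 32 had at least 100 counts, and the 7 members with at least 1000 counts had a median of 0.11 (0.09 in RT). OASL, an antiviral effector, fell from 176 counts to 56 and 35 (-1.96, interval -2.52 to -1.43). SAMD9, another antiviral protein, fell from 1554 to 737 and 385 (-1.64, interval -1.80 to -1.48). IFITM2, which blocks viral entry, was the only rise, with 720 counts in Ctrl, 410 in RT and 1132 after both treatments (1.03, interval 0.89 to 1.16).

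Targets of hypoxia-inducible factor (HIF) and glycolysis genes stayed below Ctrl to the same extent in both irradiated libraries, with a median of -0.32 over 36 genes in each. In RT + shHDAC6, 27 of the 36 were below 0, beside 10960 of all 20374 genes compared. Among the 36, 5 fell (13.9%, against 7.92% of all genes) and 1 rose (2.78%, against 4.25%). The core of the element that HIF binds is ACGTG. In RefSeq promoters (GRCh38.p14, 250 bases before to 50 bases after the start), ACGTG on either strand was present in 15 of the 32 HIF-list genes that have an entry (46.9%), and in 21.6% of all 27305 promoters. The 15 genes with a match had a median log2 ratio of -0.42 and the 17 without one had -0.10, given as a description. Of the 15, HK2 (0.49) and EGLN1 (0.09) lay above Ctrl and the others below it. The stretches below carry a match in promoters of genes that lay below Ctrl, with the match in capitals, read along the gene's strand, CACGT being ACGTG on the opposite strand.
ANGPTL4, chr19:8363911-8363935, plus strand: aaagaagagtCACGTctcccacggt
DDIT4, chr10:72273789-72273813, plus strand: aacgttgcttACGTGcgcccggagt
CA9, chr9:35673900-35673924, plus strand: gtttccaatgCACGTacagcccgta
LDHA, chr11:18394467-18394491, plus strand: cccgactcacACGTGggttcccgca
The match printed for LDHA overlaps the palindrome CACGTG, to which other factors also bind, whereas those printed for ANGPTL4, DDIT4 and CA9 do not. LDHA also has a match outside this palindrome, which is not printed. A match says only that these letters are in the window.

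These genes did not share an order across the libraries. ANGPTL4, a secreted regulator of lipoprotein lipase and vessels, had 8318 counts in Ctrl, 4755 in RT and 1245 after both treatments (-2.37, interval -2.45 to -2.28), so most of its difference lay between RT and RT + shHDAC6. SLC2A3, the glucose transporter GLUT3, had 1737, 676 and 352 counts (-1.93, interval -2.10 to -1.76). DDIT4, an inhibitor of mTORC1, had 3907, 517 and 892 counts (-1.76, interval -1.86 to -1.65), and was lower in RT (-2.48). The stress gene NDRG1 was likewise lowest in RT, with 4245, 646 and 961 counts (-1.77, interval -1.87 to -1.67). The pH regulator CA9 had 371 counts in Ctrl, 14 in RT and 93 after both treatments, so that DDIT4, NDRG1 and CA9 were partly back and still below Ctrl. LDHA, lactate dehydrogenase A, lay at -0.60 (interval -0.62 to -0.58) without reaching the 2-fold limit. The only rise was of SLC2A1, the transporter GLUT1, with 4806, 7028 and 9685 counts (1.38, interval 1.33 to 1.43).

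The angiogenic factors were away from Ctrl only after both treatments, with a median of -0.67 over 15 genes against -0.05 in RT. The 4 members with at least 1000 counts had medians of -0.85 and 0.12. Beside ANGPTL4, ANGPT1, the ligand of the endothelial receptor TIE2, fell from 633 counts in Ctrl to 317 in RT and 111 in RT + shHDAC6 (-2.14, interval -2.44 to -1.85). PDGFB, a growth factor for pericytes, fell from 257 to 54 and 61 (-1.70, interval -2.13 to -1.29), and was as low in RT. PDGFA, its relative, rose from 283 and 249 counts to 497 (1.19, interval 0.97 to 1.40). VEGFA, the main endothelial growth factor, had 4720, 2103 and 1857 counts (-0.97, interval -1.05 to -0.89).

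ATF4 stress genes, which supply amino acids, lay at -0.29 over 24 genes (-0.23 in RT), and at -0.04 over the 14 with at least 1000 counts. ALDH1L2, a mitochondrial folate enzyme, fell from 617 counts to 216 in RT and 86 in RT + shHDAC6 (-2.47, interval -2.81 to -2.14). CHAC1, which degrades glutathione, fell from 472 to 79 and 120 (-1.6, interval -1.90 to -1.31). The amino acid transporter SLC7A5 moved the other way, from 22532 to 37031 and 42987 counts (1.31, interval 1.28 to 1.33).

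A set of single genes was far from Ctrl in RT and within 1.5-fold of it after both treatments. They were chosen by these values, which are given as a description. PXYLP1, a phosphatase of proteoglycan synthesis, had 1272 counts in Ctrl, 4021 in RT and 779 after both treatments. KIT, the stem cell factor receptor, had 560, 1622 and 376 counts. FST, which binds activin, had 171, 468 and 112. Each was thus raised in RT and at or somewhat below the Ctrl level, after scaling, in RT + shHDAC6. CCN2, a matricellular target of YAP and TGF-beta, went from 2726 to 6734 counts and back to 2127, a net log2 ratio of 0.02 (interval -0.07 to 0.10). EDN1, or endothelin 1, had 71, 204 and 64 counts, and the non-coding RNA UCA1 had 458, 1133 and 411.

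**Figure D3:**
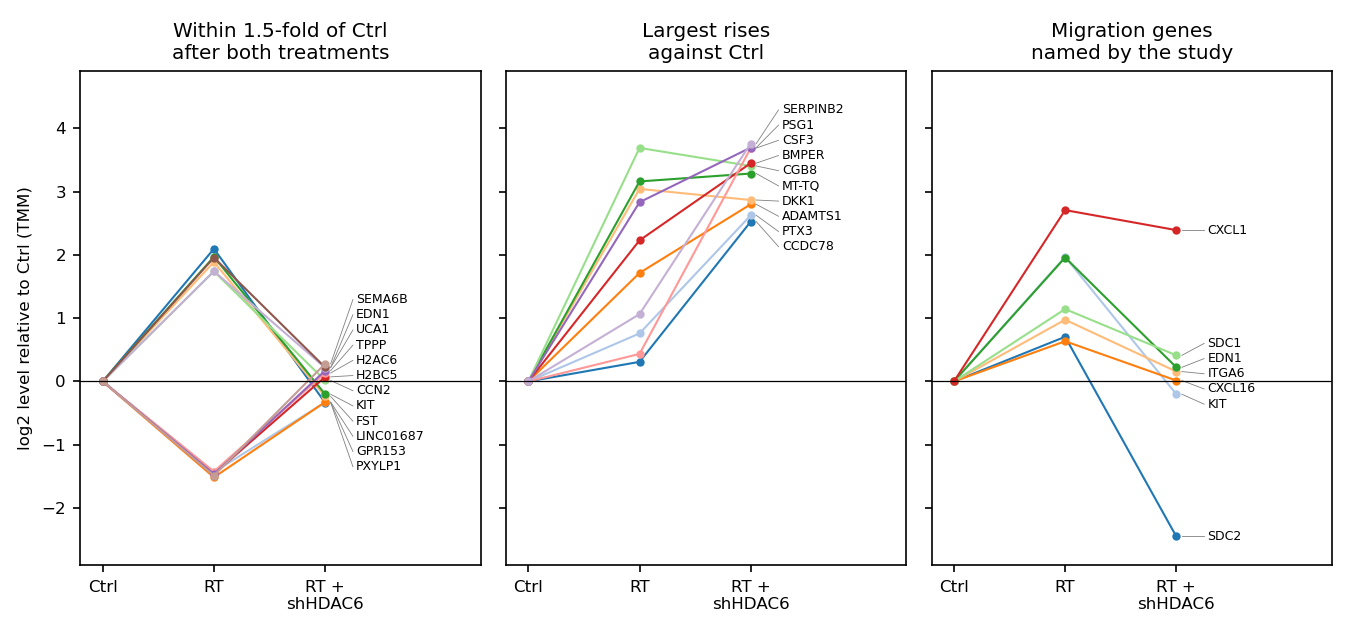
TMM-scaled log2 level relative to Ctrl in the 3 libraries, 1 line per gene. The left panel shows the genes chosen for lying within 1.5-fold of Ctrl after both treatments, the middle panel the 10 largest rises, and the right panel 7 migration genes that the study names, of which SDC2 ends at -2.45 and CXCL1 at 2.39.

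Among the migration genes that the study names, 7 are given here, and they ended at different distances from Ctrl. CXCL1 stayed high. KIT, EDN1, ITGA6, CXCL16 and SDC1 were within 1.5-fold of Ctrl. ITGA6, an integrin that binds laminin, had 46890 counts in Ctrl, 68192 in RT and 40346 after both treatments (0.16, interval 0.14 to 0.18). SDC1, a syndecan of epithelial cells, had 4216, 6889 and 4334 counts (0.41, interval 0.35 to 0.47). SDC2, a further syndecan, passed below the untreated level, with 1775 counts in Ctrl, 2141 in RT and 251 after both treatments (-2.45, interval -2.65 to -2.26).

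Proteoglycans as a list were away from Ctrl in RT (median 0.71 over 11 genes) and near it after both treatments (-0.19), but this net median hid moves in both directions. It was -0.32 with total counts only, away below Ctrl, and 0.41 over the 7 members with at least 1000 counts (0.72 in RT), away above it, so the return of the list depended on these choices. SDC2 and VCAN fell, and GPC1 and SDC4 rose. VCAN, or versican, of the matrix, had 2402 counts in Ctrl, 2431 in RT and 657 after both treatments (-1.50, interval -1.62 to -1.37). GPC1, a glypican, had 1601, 3215 and 2844 counts (1.20, interval 1.11 to 1.29), and SDC4, a syndecan of focal adhesions, had 3507, 4892 and 5702 (1.07, interval 1.01 to 1.14).

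The coagulation and plasminogen list had the same shape, with a median of 0.44 in RT and -0.15 after both treatments over 20 genes. With total counts only the latter was -0.28, which is away below Ctrl. Its 9 genes of plasminogen activation stayed above Ctrl (0.62, against 0.95 in RT), and its 11 genes of clotting and thrombin receptors went from 0.41 to -0.36. PLAU, the urokinase, rose from 8514 counts to 13592 in RT and 19110 in RT + shHDAC6 (1.54, interval 1.5 to 1.58), with 31.0% of its exon length overlapped on the other strand. F3, or tissue factor, which starts clotting, had 1353, 2106 and 450 counts (-1.22, interval -1.37 to -1.06) and so crossed from above to below Ctrl. The thrombin receptor F2R fell from 1451 to 672 and 423 (-1.41, interval -1.56 to -1.25).

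ER chaperones and the unfolded protein response were back near Ctrl without any call. Over 25 genes the median was 0.52 in RT and 0.14 in RT + shHDAC6, no member was called in either, and the range after both treatments ran from -0.38 to 0.73. The 15 chaperones and folding enzymes went from 0.52 to 0.12, while the 10 sensors and degradation factors were at 0.39 and 0.52. Among the latter, ATF6, a sensor cleaved under ER stress, had 4537, 6281 and 5445 counts (0.64, interval 0.58 to 0.69). DNAJC3, a co-chaperone, had 5744, 6817 and 7352 counts (0.73, interval 0.68 to 0.78). Heat shock proteins had 0.26 and 0.22, a difference across the limit of 0.25 that is too small to separate them.

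Receptor tyrosine kinases had a median of 0.48 in RT and 0.02 after both treatments over 20 genes, again with members on either side. The 12 members with at least 1000 counts had medians of 0.77 and 0.34. EPHB2, an ephrin receptor, had 5449 counts in Ctrl, 8627 in RT and 2101 after both treatments (-1.0, interval -1.08 to -0.93). EPHA2, another ephrin receptor, rose from 18508 to 26734 and 36562 (1.36, interval 1.33 to 1.38). AXL, the receptor of GAS6, rose from 19099 to 39991 and 35626 (1.27, interval 1.25 to 1.30). Antigen presentation genes went from 0.39 in RT to 0.17 over 25 genes, and ABC transporters from 0.36 to 0.14 over 17. Among members with at least 1000 counts these lists stayed above Ctrl, at 0.69 and 0.29 over 12 antigen presentation genes and at 0.82 and 0.55 over 8 transporters. ABCB1, the P-glycoprotein drug pump, had 818 counts in Ctrl, 878 in RT and 110 after both treatments (-2.52, interval -2.82 to -2.23).

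Replication-dependent histones, whose mRNAs end in a stem-loop and not in a poly(A) tail, returned from below. Counts per gene do not tell these stem-loop mRNAs from other transcripts of the same genes. Of 32 listed genes 24 were compared, and all of them had few counts, with none reaching 1000. Their median was -1.0 in RT, where 11 of the 24 fell and none rose, and -0.05 in RT + shHDAC6, where 3 fell and none rose. Over all genes, 6.15% fell in RT. After both treatments the falls were 12.5% of this list and 7.92% of all genes. H2AC6 had 823 counts in Ctrl, 227 in RT and 697 after both treatments, a net log2 ratio of 0.13 (interval -0.01 to 0.28). H2BC5 had 372, 100 and 302 counts (0.07, interval -0.15 to 0.30). Both encode core histones and were among the returning genes chosen by their RT value. H2AC11 did not return, with 161, 34 and 40 counts (-1.64, interval -2.17 to -1.13). Histone genes are nearly identical within a class, so the value of a single gene is uncertain. Outside the histones, SEMA6B, a transmembrane semaphorin, went from 383 counts to 101 in RT and 359 in RT + shHDAC6, TPPP, a microtubule-bundling protein, from 138 to 37 and 120, and the orphan receptor GPR153 from 197 to 54 and 121.

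AP-1 and immediate early genes went from a median of -0.42 in RT to -0.00 over 22 genes. The 8 AP-1 subunits were at -0.21 in RT and at 0.45 after both treatments. FOSL1, an AP-1 subunit linked to invasion, rose in both, with 4843, 10288 and 13416 counts (1.84, interval 1.80 to 1.89). FOS had 867, 394 and 642 counts and a net log2 ratio of -0.06 (interval -0.21 to 0.09). IER3, an early gene that modulates survival, fell from 3510 to 1585 and 656 (-2.05, interval -2.17 to -1.93), with 38.9% of its exon length overlapped on the other strand. The AP-1 element TGACTCA was present in 1 of the 16 promoters of the list that have an entry, and in 4.92% of all promoters.

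EGF receptor ligands and ERK feedback genes were at -0.26 in RT and 0.05 after both treatments over 21 genes. The 10 receptors and ligands were at 0.86 and 0.38, and the 11 feedback genes at -0.49 and 0.03. HBEGF, a ligand of the EGF receptor, rose from 1539 counts to 2137 and 2712 (1.19, interval 1.10 to 1.28). EGFR itself had 10250, 15120 and 10633 counts (0.43, interval 0.39 to 0.47).

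The 12 Notch receptors, ligands and targets had a median of -0.50 in RT and of 0.39 after both treatments, on opposite sides of Ctrl. Only 6 of the 12 had at least 100 counts in Ctrl or RT + shHDAC6. After both treatments 3 of the 12 rose (25%, against 4.25% of all genes) and none fell. NOTCH1 had 293 counts in Ctrl, 310 in RT and 1005 after both treatments (2.15, interval 1.96 to 2.34). Its ligand JAG1 had 1651, 2186 and 3938 counts (1.63, interval 1.54 to 1.71). NOTCH1 and JAG1 were already above Ctrl in RT, at 0.52 and 0.84. HES1, a target of the pathway, had 340, 175 and 193 counts (-0.44, interval -0.71 to -0.18) and did not follow them. The 12 WNT genes of the same list were at -0.35 and -0.25. Over the whole list of 24 genes the medians were -0.44 in RT and 0.06 after both treatments. Its 6 members with at least 1000 counts were above Ctrl in both, at 0.68 and 0.57. NOTCH1 passed that limit only through RT + shHDAC6, so these 6 do not show which members returned.

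YAP targets as a group remained above Ctrl, though less than in RT: the median of 9 genes was 1.33 in RT and 0.79 after both treatments. All 9 were above Ctrl in RT. After both treatments 4 rose (44.4%, against 4.25% of all genes) and 1 fell (11.1%, against 7.92%), to -1.22. ANKRD1 was higher after both, with 396, 854 and 1726 counts (2.50, interval 2.34 to 2.66), as was AMOTL2, a YAP target that feeds back on the pathway, with 3379, 6301 and 7933 (1.6, interval 1.55 to 1.66). CCN1, a matricellular protein, had 23992, 65788 and 40243 counts (1.12, interval 1.10 to 1.14). CCN1 thus came part of the way back, and CCN2 the whole way. The 16 TGF-beta ligands, receptors and feedback genes went from 0.47 to -0.09, with ID1 (1.31, interval 1.26 to 1.37) and ID3 (1.62, interval 1.49 to 1.76), inhibitors of differentiation, among the 3 that rose. Of the 2 that fell, SKIL, a repressor of SMAD signalling, had 3585, 2211 and 1180 counts (-1.23, interval -1.33 to -1.13).

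Epithelial and matrix genes moved as single genes more than as lists. KRT7, a keratin of the urothelium, had 3533 counts in Ctrl, 3854 in RT and 597 after both treatments (-2.19, interval -2.32 to -2.07). JUP, or plakoglobin, of cell junctions, fell from 3367 to 815 and 713 (-1.87, interval -1.98 to -1.75). The keratin and junction list was at -0.49 in RT and -0.25 after both treatments, and its 9 members with at least 1000 counts were at 0.02 and -0.14. The collagen COL5A2 fell from 1766 and 1785 counts to 529 (-1.37, interval -1.51 to -1.23), COL13A1 rose from 135 and 72 to 380 (1.87, interval 1.58 to 2.16), and the laminin chain LAMB3 rose from 16996 to 31321 and 29107 (1.15, interval 1.12 to 1.18). TIMP3, an inhibitor of metalloproteases, fell from 3755 to 1944 and 1187 (-1.29, interval -1.38 to -1.19). SNAI2, a repressor of epithelial genes, fell from 403 to 178 and 99 (-1.65, interval -1.98 to -1.33).

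The genes closest to the target protein were mostly near Ctrl. The 22 tubulins and HDAC6 substrates had a median of 0.02 (0.04 in RT) and a single call, TUBA1A, an alpha-tubulin, which fell from 10442 counts to 4038 in RT and 2913 in RT + shHDAC6 (-1.47, interval -1.53 to -1.41). The 26 histone deacetylases and partners had a median of -0.01, and HDAC9, a class IIa deacetylase, was their only call, with 304, 351 and 707 counts (1.59, interval 1.39 to 1.79). The lists of cholesterol synthesis (0.00), NRF2 targets (0.03), death receptors and the BCL2 family (0.09), integrins (-0.07), matrix proteases (0.00) and JAK-STAT3 (-0.09) were likewise near Ctrl. In RT, members with at least 1000 counts had medians of 0.37 for integrins, 0.37 for the extracellular matrix and 0.47 for matrix proteases, and after both treatments these were 0.09, -0.18 and -0.02. Calls within them included the sterol carrier STARD4 (-1.26, interval -1.35 to -1.17), the aldo-keto reductase AKR1C1 (-1.17, interval -1.30 to -1.05), the BH3-only protein BMF (-1.46, interval -2.00 to -0.95) and the cytokine feedback gene SOCS3 (1.23, interval 1.09 to 1.38).

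Net ratios also differed by chromosome, a pattern sought after the values were seen. Over 12233 genes whose mean count was 100 or more, the median log2 ratio was 0.05 in RT + shHDAC6 and 0.06 in RT. On chromosome 13 it was 0.27 in RT + shHDAC6 over 212 genes, 73.1% of which lay above 0, while RT had a median of -0.00. Chromosome 14 had 0.20 over 391 genes, against 0.01 in RT, and chromosome 7 had -0.12 over 587 genes, against 0.06. In 11 of the 13 windows of 10 Mb on chromosomes 13 and 14 that held at least 20 genes, the median in RT + shHDAC6 exceeded that in RT by over 0.1, as it did in 39 of all 234 windows. The largest such differences were on chromosome 3, at 0.48 for 100 to 110 Mb and 0.45 for 110 to 120 Mb, and the lowest was on chromosome 12, at -0.34 for 0 to 10 Mb. The part of chromosome position in the list medians was not tested.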

How the data were processed

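RNA from T24 cells was sequenced in 1 library per condition (Ctrl, RT and RT + shHDAC6, as labelled). After adaptor trimming (cutadapt), the authors aligned reads to GRCh38 with STAR (version 2.6.1a in the submitters' processing notes), used featureCounts with the GENCODE release 28 annotation, and deposited raw whole-number read counts. The strand setting and how multi-gene reads were treated are not given in the sources used here, so overlapping genes and paralogs could share counts.

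Symbols and positions came from GENCODE release 44, in which 57799 of 58381 identifiers matched. The deposited counts were scaled by TMM (edgeR 4.0.16) and turned into log2 ratios with a count of 0 set to 0.5 and 95% Clopper-Pearson intervals (scipy 1.17.1), for genes with at least 10 counts in either library. At these depths a count of 0 allows up to 3 counts, that is between 0.0718 and 0.0847 CPM. No molecular identifiers are stated, so reads may not be separate molecules, and the intervals and this floor hold counting error alone. Since each condition had a single library, no edgeR or DESeq2 test could be run.

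Pathways were described by 44 lists (1101 of 1105 genes matched, 1070 compared). Named genes were HDAC6, the 10 largest rises and falls, up to 4 members per list, 6 genes returning from each side, each with 100 or more counts in the library where it was higher, and the migration genes that the study names. Genes outside this rule, namely CA9, LDHA, SLC2A1, VEGFA, F3, LAMP1, CGA, MDM2, CDKN1A, FOS, EGFR, HES1, PDCD1LG2, TNFSF4, CD70 and SKIL, were named after their values were seen. Members and lists were chosen with earlier results of these data known. Some genes covered by the rule are not reported here. Promoter sequences are RefSeq's (GRCh38.p14).

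Alternatives covered scaling (total counts, DESeq2 1.42.0 size factors, upper quartile), zeros, the count filter, the fold limit, the interval, a re-implementation of the NOISeq procedure of the study (probability over 0.4) and the list limit.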

Additional observations from a re-analysis of the deposited data

How the results depend on the processing

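No paired analysis was possible because each condition had 1 library. The 865 rises became 2303 with a 1.5-fold limit, 137 with 4-fold, 452 with at least 100 counts and 6319 with a NOISeq probability over 0.4. The 1613 falls became 2819, 540, 562 and 6698 under the same settings. The 15 lists away from Ctrl numbered 7 with a limit of 0.4 and between 14 and 19 under the other settings, and the 12 lists back near Ctrl between 10 and 13. With total counts only, 11 of the 15 lists away remained so. The 4 that did not were mitochondrial ribosomal proteins, NF-kB targets, immune checkpoint ligands and excision repair. The median of the immune checkpoint ligands was -0.24 with at least 1 count in place of 0.29, which adds genes with very few counts. Over the 44 lists and the 6 alternatives for scaling, zeros and the count filter, 244 medians kept their side of the limit of 0.25, 19 did not and 1 reversed. Of the lists back near Ctrl, proteoglycans (-0.32), coagulation (-0.28) and keratins (-0.38) were away with total counts only. Over members with at least 1000 counts, chosen after seeing the data, 35 list medians kept their side, 7 did not, and that of the interferon-stimulated genes turned from -0.31 to 0.11. Of the values of named genes under the 6 alternatives, 844 stayed within their counting interval and 98 moved outside it. With 1 library per condition, variation between cultures is not known, and it adds to the counting intervals.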
